A study of Mus musculus with 8 samples.

Results

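The globin and erythroid genes described here are 10 of the 55487 genes in the count table: the adult α-like globins Hba-a1 and Hba-a2, the adult β-like globins Hbb-bs and Hbb-bt, the embryonic globins Hba-x, Hbb-y and Hbb-bh1, and 3 genes of other red cell proteins, Alas2, Ermap and Slc4a1. They were taken by symbol, and all 10 had a row in the table. RNA came from cells sorted by flow cytometry as germ cells from the fetal testes of C57BL/6 mice. There were 4 libraries labelled KO, from animals null for the X-linked homeobox gene Rhox10 on an Oct4-eGFP+/+ background, and 4 labelled WT, from Oct4-eGFP+/+ littermates, so both groups carry the reporter, a green fluorescent protein under control of Oct4, a gene of pluripotent and early germ cells. Each library was made from 1 ng of total RNA, and the sources used here give no fetal age. Whether each library is a separate animal or a pool is also not given, so p-values measure the spread between these samples, which may be technical.

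The 4 libraries labelled KO held 16346977 to 19640252 counts and the 4 labelled WT 16489478 to 20311338. Rhox10 itself had 14, 10, 18 and 22 counts in the libraries labelled KO and 18, 25, 19 and 17 in those labelled WT, with a log2 fold change of -0.28 (edgeR adjusted p = 0.767), so the counts do not check the genotype labels. Levels are given as CPM, counts scaled to a common library total after TMM correction, which lines up the bulk of genes between libraries. Germ cell markers were present, with 10 genes summing to 148 to 156 CPM in the libraries labelled KO and 146 to 159 CPM in those labelled WT. Markers of Leydig cells, the steroid-making somatic cells of the testis, summed higher. Their 7 genes were at 2838 to 2880 CPM with the KO label and 3121 to 3150 CPM with the WT label. For Sertoli cells, also somatic cells of the testis, 9 genes summed to 653 to 679 CPM with the KO label and 676 to 704 CPM with the WT label. Both sums were above that of the germ cell markers in every library, although the cells were sorted as germ cells. The share of germ cells in the libraries was not tested.

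Haemoglobin is a tetramer of α-like and β-like globin chains, each holding a haem group. In the mouse, the α-like genes lie together on chromosome 11 and the β-like genes on chromosome 7. Primitive red cells of the yolk sac use the embryonic genes Hba-x (ζ), Hbb-y (εy) and Hbb-bh1 (βh1), though not only these. Definitive red cells of the fetal liver and bone marrow use the adult genes. Globin mRNA makes up most of the mRNA of a late erythroid precursor.

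In the libraries labelled KO the 4 adult globin genes fell together to about 35% of their level in the libraries labelled WT. Ermap, which encodes an erythroid membrane protein of the immunoglobulin superfamily, fell to 51.0%. Alas2, which encodes the erythroid form of the first enzyme of haem synthesis, and Slc4a1, which encodes band 3, the anion exchanger of the red cell membrane, did not pass the test. The 3 embryonic globin genes had between 0 and 4 counts in any library and were not tested. Of the 7 members tested, 5 fell, 0 rose and 2 did not pass (edgeR quasi-likelihood test, adjusted p under 0.05 over all genes). Of all 23190 genes tested, 5.14% were called in either direction, 2.80% as lower and 2.35% as higher. Among those that fell, 46 genes (0.198% of all tested) fell at least 2-fold, and the 4 adult globins are among them. In bulk RNA, fewer red cells and less globin RNA per red cell cannot be told apart.

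**Figure D1:**
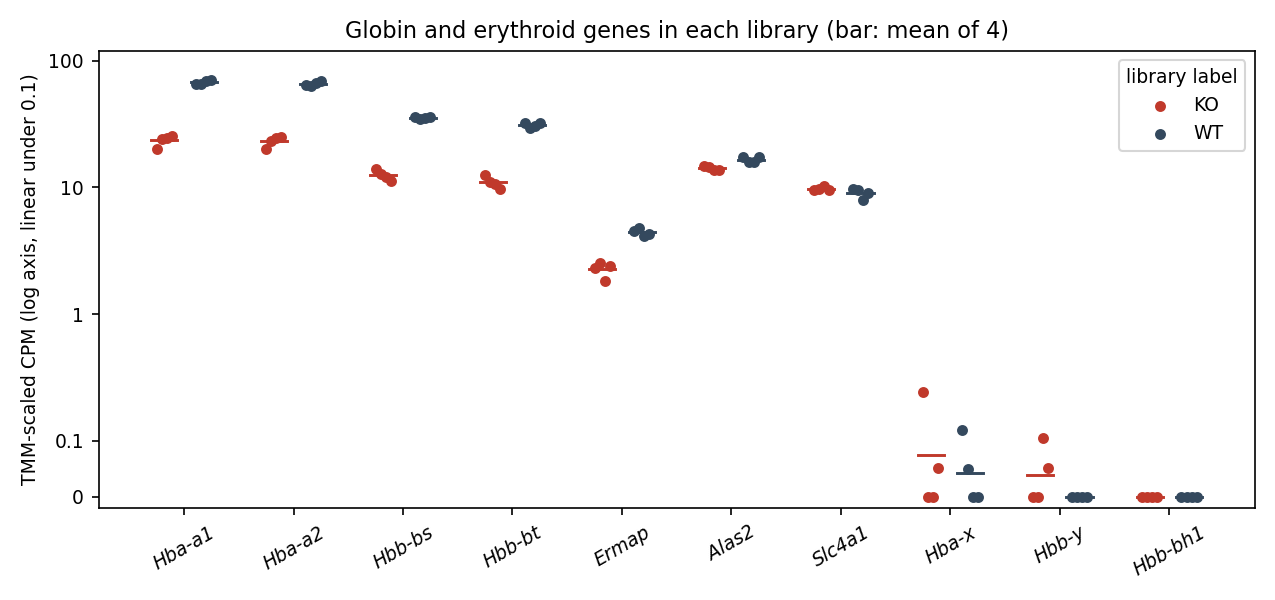
TMM-scaled CPM (vertical axis, logarithmic above 0.1 and linear below) of the 10 genes in each of the 4 libraries labelled KO (red, left) and the 4 labelled WT (dark, right), with a bar at the mean. The 4 adult globins and Ermap separate by label, Alas2 separates narrowly, Slc4a1 overlaps, and the embryonic globins lie near 0.

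The adult α-like genes encode the α chain of all definitive haemoglobin. Hba-a1 (ENSMUSG00000069919) lies on the plus strand of chromosome 11 from 32283511 to 32284465 (GRCm38, the build of the table). It was at 20.2, 24.3, 24.4 and 25.7 CPM in the libraries labelled KO and at 66.0, 66.1, 69.5 and 70.2 CPM in those labelled WT. The highest library labelled KO was thus far under the lowest labelled WT. Its means were 23.6 ± 2.35 and 67.9 ± 2.23 CPM (SD, n = 4 each), a log2 fold change of -1.52 with a standard error of 0.05 (edgeR adjusted p = 2.62e-85). Hba-a2 (ENSMUSG00000069917; chromosome 11, 32296489 to 32297298) was at 19.9, 23.3, 24.6 and 25.0 CPM with the KO label and at 64.5, 63.3, 67.0 and 69.1 CPM with the WT label. Its groups did not overlap either, and its log2 fold change was -1.50 (standard error 0.05, edgeR adjusted p = 6.06e-83).

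The adult β-like genes encode the β chain that pairs with α. Hbb-bs (ENSMUSG00000052305; chromosome 7, minus strand, 103826534 to 103828096) was at 13.9, 12.8, 12.2 and 11.2 CPM in the libraries labelled KO, against 36.1, 34.9, 35.2 and 36.2 CPM in those labelled WT. The groups did not overlap, and the log2 fold change was -1.51 (standard error 0.07, edgeR adjusted p = 1.14e-59). Hbb-bt (ENSMUSG00000073940; chromosome 7, minus strand, 103812524 to 103813996) was at 12.5, 11.1, 10.7 and 9.64 CPM with the KO label and at 32.3, 29.3, 30.7 and 32.4 CPM with the WT label. Its log2 fold change was also -1.51 (standard error 0.08, edgeR adjusted p = 2.28e-54). The α-like and β-like genes, on different chromosomes, thus had log2 fold changes within 0.02 of each other, less than the standard error of any of the 4.

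The copies within each adult pair are not independent measurements. In the GENCODE M21 transcripts, the coding sequences of Hba-a1 and Hba-a2 differ at 1 of 429 bases and those of Hbb-bs and Hbb-bt at 1 of 444. Of the 100-base windows of coding sequence, 85.2% of those of each α copy and 91.9% of those of each β copy also occur in the other copy, and none of those of Hba-x, Hbb-y, Hbb-bh1, Alas2, Ermap or Slc4a1 occurs in a transcript of another gene. The counts of Hba-a2 were 96.1 to 101% of those of Hba-a1 in the libraries labelled KO and 95.9 to 98.4% in those labelled WT. The counts of Hbb-bt were 85.8 to 89.9% of those of Hbb-bs with the KO label and 83.8 to 89.7% with the WT label. How reads that match both copies were counted is not given in the sources used here, so each pair is best read as 1 measurement. With each pair summed into 1 row, the log2 fold change was -1.51 for the α pair and -1.51 for the β pair (edgeR adjusted p = 1.18e-68 and 8.29e-84).

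The last 60 bases of the β-like coding sequences, in exon 3, are shown because they hold the 1 base that separates the adult copies and several that separate the embryonic genes from them. They are from the GENCODE M21 transcripts (GRCm38, minus strand), and capitals mark each base that differs from Hbb-bs at the same position of the coding sequence, positions 385 to 444.
Hbb-bs, chr7:103826665-103826724: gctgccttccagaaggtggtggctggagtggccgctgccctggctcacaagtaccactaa
Hbb-bt, chr7:103812656-103812715: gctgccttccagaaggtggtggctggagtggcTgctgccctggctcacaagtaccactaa
Hbb-y, chr7:103851874-103851933: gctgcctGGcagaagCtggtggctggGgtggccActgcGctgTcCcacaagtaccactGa
Hbb-bh1, chr7:103841752-103841811: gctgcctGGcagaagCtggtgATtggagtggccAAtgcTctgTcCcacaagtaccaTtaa
Hbb-y differs from Hbb-bs at 9 of these 60 bases and Hbb-bh1 at 11. Over the whole coding sequence Hbb-y was 74.3% identical to Hbb-bs, Hbb-bh1 74.1% identical to Hbb-bs, and Hba-x 62.0% identical to Hba-a1. No 50-base window of an embryonic coding sequence occurs in another gene.

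The embryonic globins were at the edge of detection under both labels. Hbb-bh1 (chromosome 7, 103841637 to 103843164) had 0 counts in all 8 libraries. Hbb-y (chromosome 7, 103851749 to 103853216) had 0, 0, 2 and 1 counts in the libraries labelled KO and 0 in all those labelled WT. Hba-x (chromosome 11, 32276400 to 32278116) had 4, 0, 0 and 1 counts with the KO label and 2, 1, 0 and 0 with the WT label. A count of 0 allows up to 3 counts, 0.153 to 0.183 CPM in a library labelled KO and 0.148 to 0.180 CPM in a library labelled WT. No fold is given for Hbb-y or Hbb-bh1. For Hba-x the ratio of summed counts, KO over WT and scaled by library size, was 1.7 with a 95% exact interval of 0.331 to 10.9, which leaves its direction undetermined.

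The adult genes supplied nearly all globin reads under both labels. Hbb-y and Hbb-bh1 made up 3 of 1676 β-like counts in the libraries labelled KO, or 0.179% (95% exact interval 0.0369 to 0.522%). In the libraries labelled WT they made up 0 of 4868, which allows a share of up to 0.0616%, with an exact interval of 0 to 0.0758%. Hba-x made up 5 of 3379 α-like counts with the KO label (0.148%, 0.0481 to 0.345%) and 3 of 9783 with the WT label (0.0307%, 0.00632 to 0.0896%). The intervals of each pair overlap. They treat each read as independent and leave out the variation between samples. These reads carry no molecular identifiers, so copies of the same molecule may make the intervals too narrow. Both shares were higher with the KO label, where the adult counts they are set against were lower. The adult counts add both copies of a pair. How reads that match both copies were counted is not given, so the shares may be too high or too low. Of the 5 Hba-x counts with the KO label, 4 came from KO replicate 1. The difference in shares between labels was not tested, since pooled reads are not replicates.

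Ermap (ENSMUSG00000028644; chromosome 4, minus strand, 119175457 to 119190011) was at 2.32, 2.51, 1.84 and 2.41 CPM in the libraries labelled KO and at 4.51, 4.81, 4.16 and 4.28 CPM in those labelled WT. The groups did not overlap. Its means were 2.27 ± 0.298 and 4.44 ± 0.286 CPM (SD, n = 4 each), a log2 fold change of -0.97 with a standard error of 0.18 (edgeR adjusted p = 8.97e-06).

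Alas2 (ENSMUSG00000025270; chromosome X, plus strand, 150547375 to 150570638) was at 14.7, 14.5, 13.8 and 13.7 CPM with the KO label and at 17.4, 15.9, 15.8 and 17.2 CPM with the WT label. The groups did not overlap, by a narrow margin, and the log2 fold change was -0.23 with a standard error of 0.08 (edgeR adjusted p = 0.0932, unadjusted 0.00634). With Alas2, the groups did not overlap for 6 members, each lower with the KO label, as for 4.72% of all genes tested. The annotated exons of Alas2 share 311 bases with Apex2, a DNA repair nuclease gene on the opposite strand. Apex2 was at 47.2 ± 1.89 CPM with the KO label and 42.8 ± 1.30 CPM with the WT label (SD, n = 4 each; log2 fold change 0.14, edgeR adjusted p = 0.0916). Whether counting used strand is not given in the sources used here, so some Alas2 counts may be those of Apex2.

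Slc4a1 (ENSMUSG00000006574; chromosome 11, minus strand, 102348824 to 102366203) was at 9.60, 9.74, 10.3 and 9.58 CPM in the libraries labelled KO and at 9.75, 9.57, 7.95 and 9.08 CPM in those labelled WT. The groups overlapped, and WT replicate 3 was the lowest of the 8. The log2 fold change was 0.11 with a standard error of 0.10 (edgeR adjusted p = 0.688), and its 95% interval ran from -0.09 to 0.32. That interval does not reach the fold change of Ermap or of the adult globins.

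**Figure D2:**
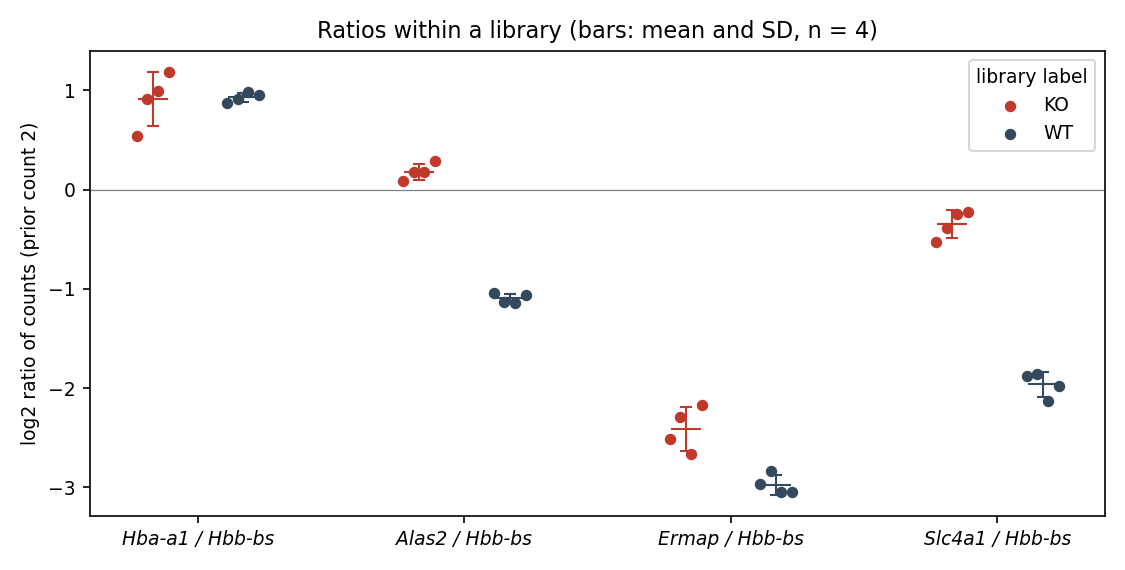
Log2 ratio of the counts of 2 genes within a library (vertical axis; 2 added to each count) for the 4 libraries labelled KO (red, left) and the 4 labelled WT (dark, right), with the mean and SD of each group. The α to β ratio overlaps between labels. For Alas2, Ermap and Slc4a1 every library labelled KO lies above every library labelled WT. All are ratios to Hbb-bs, which itself fell. Adjusted over the 7 ratios planned, no ratio could pass the threshold.

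Ratios within a library do not depend on library scaling, and were used to ask whether the members moved by the same amount. Of 7 ratios planned, the 3 with an embryonic globin had too few counts, and 4 were tested by an exact two-sided permutation test over the 70 splits, whose smallest p is 0.0286. Adjusted over the 7 planned, no ratio could pass. The counts of Slc4a1 were 0.692 to 0.854 of those of Hbb-bs in the libraries labelled KO and 0.226 to 0.274 in those labelled WT, a log2 difference of 1.61 or 3.06-fold (exact permutation p = 0.0286, adjusted 0.0667). Alas2 had 1.06 to 1.22 times the counts of Hbb-bs with the KO label and 0.451 to 0.482 times with the WT label, a log2 difference of 1.28 (exact permutation p = 0.0286, adjusted 0.0667). Ermap stood at 0.151 to 0.215 of Hbb-bs with the KO label and 0.118 to 0.138 with the WT label, a log2 difference of 0.56 (exact permutation p = 0.0286, adjusted 0.0667). In all 3 ratios every library labelled KO was above every library labelled WT, but none passed the adjusted threshold. The 4 ratios share the denominator Hbb-bs, which itself fell, so any gene that fell less has a higher ratio with the KO label. They are not independent of each other and restate the fold changes given above. The Alas2 ratio may also hold counts of Apex2. Adjusted over the 4 tested ratios alone, a choice made after seeing the data, the exact permutation p of each of the 3 was 0.0381.

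The mean α to β ratio was close under both labels, with no call. Hba-a1 had 1.46, 1.90, 2.0 and 2.29 times the counts of Hbb-bs in KO replicates 1 to 4 and 1.83, 1.89, 1.98 and 1.94 times in WT replicates 1 to 4 (log2 difference -0.02, exact permutation p = 0.914, adjusted 1.0). The SD of the log2 ratio was 0.27 among libraries labelled KO and 0.05 among those labelled WT. KO replicate 1 had the lowest ratio, with a 95% exact counting interval of 1.23 to 1.73, and KO replicate 4 the highest, with one of 1.95 to 2.69; these libraries were singled out after their values were seen, and the intervals leave out the variation between samples. In replicate 1 both α copies were at their lowest and both β copies at their highest of the libraries labelled KO. Without KO replicate 1 the log2 difference turned to 0.10 (exact permutation adjusted p = 0.35), also not called.

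Per kilobase of annotated exon, the adult α-like genes were the highest of the members and the adult β-like genes next. In the libraries labelled KO, Hba-a2 averaged 34.8 ± 3.45, Hba-a1 29.1 ± 2.90, Hbb-bs 16.3 ± 1.45, Hbb-bt 15.6 ± 1.67, Alas2 5.90 ± 0.211, Slc4a1 2.0 ± 0.0680 and Ermap 0.429 ± 0.0563 CPM per kilobase (SD, n = 4). In the libraries labelled WT the same genes averaged 98.9 ± 3.84, 83.7 ± 2.75, 46.3 ± 0.800, 44.3 ± 2.11, 6.91 ± 0.347, 1.86 ± 0.166 and 0.838 ± 0.0540 CPM per kilobase. The order was the same under both labels. Hbb-bs was above Hbb-bt in all 8 libraries, with ranges that overlapped under each label, and the lengths behind the α-like values were 812 bases for Hba-a1 and 667 for Hba-a2.

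Promoter sequence is shown for the globins as a description of the genes. Any part of it in the fall of the adult genes was not tested. RefSeq windows (GRCm38.p6) were found for 8 members, all but Hbb-bh1 and Slc4a1, and the 120 bases before the annotated start were searched on both strands for the motifs TATAA, then CCAAT, then CACCC and lastly GATAA. Capitals mark every match, and adjoining matches run together.
Hba-a2, chr11:32296372-32296491, plus strand: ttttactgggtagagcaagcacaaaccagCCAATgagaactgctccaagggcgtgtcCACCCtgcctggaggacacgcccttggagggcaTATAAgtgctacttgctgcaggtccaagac
Hbb-bs, chr7:103827929-103828048, minus strand: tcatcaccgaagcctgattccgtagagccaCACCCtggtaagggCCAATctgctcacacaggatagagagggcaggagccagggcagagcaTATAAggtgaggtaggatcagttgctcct
Hbb-bt, chr7:103813924-103814043, minus strand: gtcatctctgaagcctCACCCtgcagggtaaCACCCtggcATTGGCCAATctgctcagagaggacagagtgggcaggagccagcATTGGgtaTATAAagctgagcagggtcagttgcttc
Hba-x, chr11:32276480-32276599, plus strand: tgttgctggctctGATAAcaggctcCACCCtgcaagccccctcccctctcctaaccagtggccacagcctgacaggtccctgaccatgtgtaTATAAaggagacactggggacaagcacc
Hbb-y, chr7:103853208-103853327, minus strand: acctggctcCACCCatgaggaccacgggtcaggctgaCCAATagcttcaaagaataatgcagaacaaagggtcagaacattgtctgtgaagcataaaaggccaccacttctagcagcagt
The window of Hba-a1 matches that of Hba-a2 at all 117 bases that align, and those of Hbb-bs and Hbb-bt match at 88 of 119. CACCC, the core of the site of the erythroid factor KLF1, was in all 8 windows and in 31.7% of 32851 promoter windows of the same length. TATAA was in 6 of 8 (11.8% of all windows), CCAAT in 5 of 8 (21.3%) and GATAA, the core of a GATA site, in 3 of 8 (10.5%), namely Alas2, Ermap and Hba-x. All 4 adult globins hold the first 3 of these motifs in their windows. The windows of Hba-a1 and Hba-a2 are copies of each other and most of the 8 are of related globin genes. The counts out of 8 are thus not of independent windows, and their excess over all windows was not tested. A match is a description of the letters and not of binding.

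None of the tested genes that flank the 2 globin clusters was called. Besides the members, 11 genes lie within 200 kb of the α-like cluster and 38 within 200 kb of the β-like cluster. Most of those beside the β-like cluster had too few counts to be tested. Within 200 kb of the α-like cluster 7 genes were tested, among them Nprl3, whose introns hold the enhancers of the α-globin genes, at 23.0 ± 1.12 CPM with the KO label and 21.3 ± 2.26 CPM with the WT label (SD, n = 4 each; log2 fold change 0.11, edgeR adjusted p = 0.455). In edgeR 0 of these 7 passed, 1 had an unadjusted p under 0.05, and DESeq2 and limma voom called 0. Within 200 kb of the β-like cluster 3 genes were tested, and edgeR, DESeq2 and limma voom called 0, with 0 at an unadjusted p under 0.05. These 3 genes were low, with group means of 1.19 to 1.90 CPM. The other globins tested were Cygb (cytoglobin), at 16.8 ± 1.16 and 17.2 ± 0.796 CPM, and Ngb (neuroglobin), at 0.724 ± 0.0915 and 0.708 ± 0.369 CPM with the KO and the WT label (SD, n = 4 each). Their log2 fold changes were -0.03 and 0.01 (edgeR adjusted p = 0.922 and 0.995; 0 of 2 had an unadjusted p under 0.05, and DESeq2 and limma voom called 0). Hbb-bh0, Hbb-bh2, Hbb-bh3 and Hbq1a had 0 counts in all 8 libraries.

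**Figure D3:**
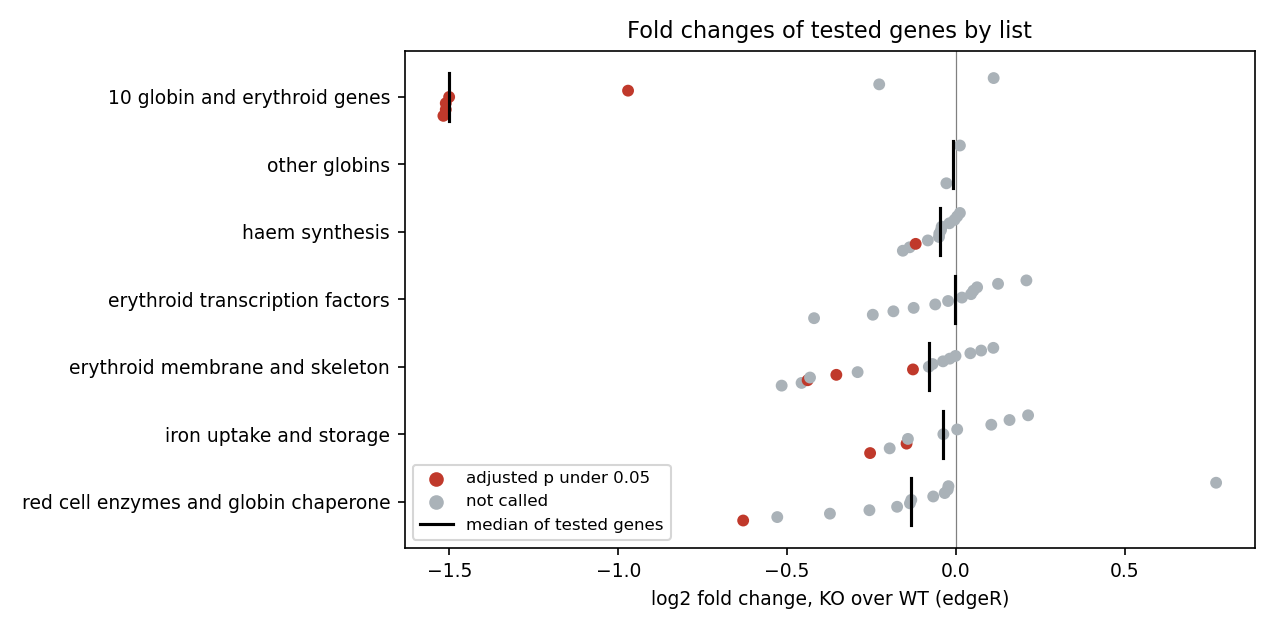
Log2 fold change, KO over WT (horizontal axis), of each tested gene among the 10 globin and erythroid genes and in 6 related lists (rows), with called genes in red and the median of each row as a black line. The adult globins lie near -1.5, while no gene of the other lists lies below -0.63.

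In the list of erythroid membrane and skeleton genes, 3 of 15 tested fell, 0 rose and 12 did not pass, with a median log2 fold change of -0.08 against 0.002 over all genes. Ank1, which encodes the ankyrin that ties spectrin to band 3, fell by 0.35 (edgeR adjusted p = 0.00434), at 11.5 ± 0.825 CPM with the KO label and 14.7 ± 1.65 CPM with the WT label (SD, n = 4 each). Sptb, which encodes the erythroid β-spectrin of the membrane skeleton, fell by 0.13 (adjusted p = 0.00351), at 118 ± 1.69 CPM with the KO label and 129 ± 3.51 CPM with the WT label (SD, n = 4 each).

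Among haem synthesis genes outside Alas2, 1 of 12 fell, 0 rose and 11 did not pass, with a median of -0.05. The faller was Alas1, the form of the first enzyme used outside red cells, at 316 ± 4.57 CPM with the KO label and 343 ± 4.66 CPM with the WT label (SD, n = 4 each; log2 fold change -0.12, edgeR adjusted p = 4.58e-05). In the list of iron uptake and storage genes 2 of 9 fell, 0 rose and 7 did not pass, with a median of -0.04. They were Fth1 and Ftl1, the ferritin subunit genes of most cells, which fell by 0.25 (adjusted p = 2.22e-10) and 0.15 (adjusted p = 0.00848); DESeq2 called Fth1 but not Ftl1. Of 12 red cell enzyme genes, 1 fell, 0 rose and 11 did not pass, with a median of -0.13. That gene was Car2, which encodes a carbonic anhydrase, at 2.17 ± 0.375 CPM with the KO label and 3.35 ± 0.275 CPM with the WT label (SD, n = 4 each; log2 fold change -0.63, edgeR adjusted p = 0.0265); DESeq2 did not call it.

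None of the erythroid transcription factor genes was called. Of 12 tested, 0 passed in edgeR, 0 had an unadjusted p under 0.05, and DESeq2 and limma voom called 0; their median log2 fold change was -0.003. The highest in CPM were Ldb1, which encodes a scaffold of the GATA1 complex, at 106 ± 2.70 and 103 ± 3.97 CPM, and Zfpm1, which encodes the GATA1 partner FOG1, at 69.9 ± 5.86 and 73.0 ± 4.23 CPM with the KO and the WT label (SD, n = 4 each). Both act in other tissues too. Of the erythroid regulators, Gata1 was at 0.607 ± 0.275 and 0.689 ± 0.287 CPM, and Klf1 at 0.825 ± 0.289 and 1.11 ± 0.458 CPM (SD, n = 4 each; edgeR adjusted p = 0.888 and 0.599).

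The 5 genes outside the 10 whose profile over the 8 libraries was nearest to that of Hbb-bs were in none of the red cell lists. Likeness was the root mean square difference of log2 CPM, each gene centred on its own mean, for tested genes whose mean log2 CPM reached 1. The nearest was Nlrp4f, of an oocyte gene family, at 0.182, followed by Ttn, which encodes the muscle protein titin, at 0.207. Clgn, a germ cell chaperone gene, was at 0.276, Abca17, a transporter gene, at 0.300 and Gm26640 at 0.304. Among the members, Hbb-bt was at 0.0330, Hba-a2 at 0.168, Hba-a1 at 0.169, Ermap at 0.317, Alas2 at 0.641 and Slc4a1 at 0.816. The measure counts the difference between labels as well as the spread within them.

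**Figure D4:**
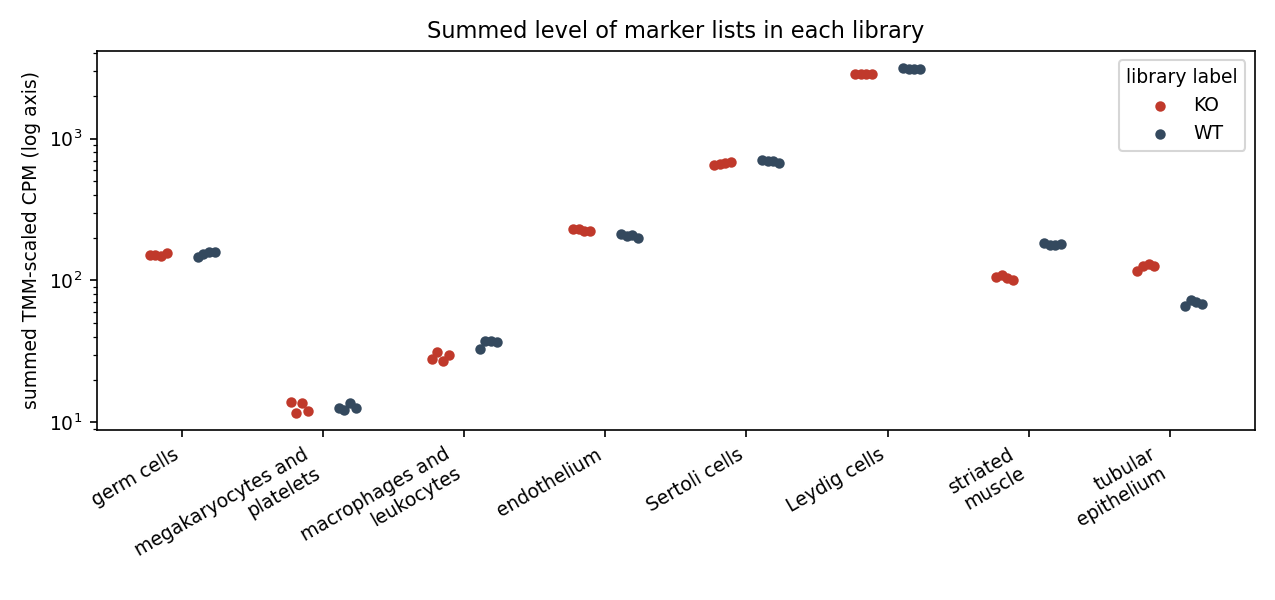
Summed TMM-scaled CPM (vertical axis, logarithmic) of 8 lists of marker genes in each library labelled KO (red, left) and WT (dark, right). With the KO label, striated muscle, macrophage and Leydig cell markers are lower and tubular epithelium and endothelial markers higher, with no overlap between labels. Germ cell, platelet and Sertoli cell markers overlap.

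Markers of several other cell types moved with the label, and their part in the fall of the globins was not tested. Of 7 macrophage and leukocyte genes tested, 1 fell (Lyz2, lysozyme, by 0.69, edgeR adjusted p = 0.000259) and 6 did not pass, and the list summed to 27.2 to 31.4 CPM in the libraries labelled KO and 32.7 to 37.4 CPM in those labelled WT; all 12 genes of the list had counts. Of 10 platelet and megakaryocyte genes 3 were tested, and edgeR, DESeq2 and limma voom called 0, with 0 at an unadjusted p under 0.05; the list summed to 11.7 to 13.8 CPM with the KO label and 12.1 to 13.7 CPM with the WT label, and Ppbp, which encodes a platelet chemokine, had 0 counts. Of 10 endothelial genes 2 rose and 8 did not pass, with sums of 224 to 230 and 199 to 214 CPM and none at 0. Of 11 striated muscle genes 3 fell and 8 did not pass, with sums of 100 to 110 CPM with the KO label and 178 to 183 CPM with the WT label, of which Ttn made up 57.5 ± 2.41 and 125 ± 2.19 CPM (SD, n = 4 each), and none of the list at 0. All 10 tubular epithelium genes rose, with sums of 118 to 131 and 66.5 to 72.5 CPM. Of 7 Leydig cell genes 5 fell and 2 did not pass, and of 9 Sertoli cell genes 2 fell and 7 did not pass, with sums of 653 to 679 and 676 to 704 CPM with the KO and the WT label. Of 9 germ cell genes tested 1 rose, 1 fell and 7 did not pass.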

How the data were processed

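The authors deposited 1 table of raw counts of reads per gene for 8 libraries, with no normalization. Total RNA was prepared with a pico-input stranded total RNA kit, per the labels' protocols. The submitters' processing notes name GRCm38 as the build and list DESeq2, featureCounts, Subread and STAR 2.5.2b, without settings. Gene lengths are in the table's length column, per the file headers.

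Symbols came from GENCODE M21, which matched 55141 of 55487 IDs; 99.35% of those in its annotation had the same position. Genes were filtered with filterByExpr and scaled by TMM, and KO was compared with WT, as labelled, by the robust quasi-likelihood test of edgeR 4.0.16 in R 4.3.3, adjusted by Benjamini-Hochberg over all 23190 genes tested. Standard errors were derived from the fold change and its F statistic. DESeq2 1.42.0 and limma 3.58.1 (voom with quality weights) were alternatives. Ratios within a library (2 added to each count) were compared by exact permutation, adjusted over the 7 planned with the 3 untested entered as p = 1. The fit was tested on simulated data. The common coefficient of variation between libraries was 3.87%, and none of the 12 pairs of libraries with the same label agreed within sampling noise.

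Named genes were the 10 members, the other globins tested, up to 3 called genes of smallest p in each red cell list (or the 2 most abundant), and the 5 nearest profiles. Gata1, Klf1, Apex2, Nprl3 and the genes named from marker lists were named outside that rule, after their values were seen. The members and lists were chosen with earlier results of these data known. Of the lists, Ahsp and Rhex matched no row by symbol. Some genes of the lists are counted but not reported here by name.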

Additional observations from a re-analysis of the deposited data

Results flagged for a closer look

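Of 50 sets of 4 libraries checked for a library far from the rest, 2 stood out, both for WT replicate 1; chance flags about 1 set in 20. Its summed level of macrophage and leukocyte genes was 32.7 CPM, against 36.8 CPM in the next library labelled WT (gap over range 0.873). Its summed level of Leydig cell genes was 3150 CPM, against 3123 CPM in the next (gap over range 0.931). None of the 7 tested members and none of the 4 ratios was marked in this way under either label.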

How the results depend on the processing

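Under each alternative of scaling, filter, test, dispersion, threshold or library left out, the 5 members called as lower were called as lower and neither Alas2 nor Slc4a1 was called. The count of rows called was 3 with each adult pair summed into 1 row. Leaving out each library in turn gave log2 fold changes of -1.56 to -1.45 for Hba-a1, -1.54 to -1.44 for Hba-a2, -1.56 to -1.46 for Hbb-bs, -1.58 to -1.45 for Hbb-bt, -1.02 to -0.88 for Ermap, -0.25 to -0.20 for Alas2 and 0.05 to 0.14 for Slc4a1. The adjusted p of Alas2 ranged from 0.061 to 0.224 over all alternatives. Over all genes tested, 1193 genes were called, 678 at an adjusted p under 0.01, 729 with DESeq2 and 898 to 1040 without a library; with library totals alone 836 of 1262 calls were lower, and with upper-quartile scaling 555 of 1188, against 649 of 1193.

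Without a library, the log2 differences of ratios to Hbb-bs ranged from 1.24 to 1.31 for Alas2, 0.48 to 0.65 for Ermap, 1.56 to 1.68 for Slc4a1 and -0.11 to 0.10 for Hba-a1. The Hba-a1 ratio reversed to 0.10 without KO replicate 1; the cause was not tested. With same-numbered libraries paired (a replicate block), an exact sign-flip test of the 4 pairs could not have called a ratio, and gave an adjusted p of 0.292 for Alas2, Ermap and Slc4a1. Adjusted over the 4 tested ratios alone, an alternative chosen after seeing the data, the differences of Alas2 (1.28), Ermap (0.56) and Slc4a1 (1.61) passed (exact permutation adjusted p = 0.0381). The replicate block in edgeR changed no member's call and gave 1249 called genes. Deviations of same-numbered libraries correlated at -0.01 to 0.02 over the tested genes, so no pairing by number was seen. A correlation over so many genes, many of them with low counts, cannot exclude a shared litter or day.

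Depth limits the embryonic globins, which could not be tested, and the scarce red cell factors.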
